A study of Mus musculus with 8 samples.

Results

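Dendritic cells carry antigen to T cells, and 10 genes that mark these cells or serve this role were followed in whole tumors, chosen by symbol out of the 55536 genes counted. The set comprised 6 genes that mark dendritic cells or their subsets (Flt3, Xcr1, Clec9a, Siglech, Cd209a and Itgax), set against 4 genes of costimulation and migration (Cd40, Cd80, Cd86 and Ccr7). All 10 were found once in the count table and are protein-coding genes of the mouse genome (build GRCm38, GENCODE M21 gene models).

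HCA-1, a mouse hepatocellular carcinoma line, was implanted into the liver of male C3H mice, whose age is 6 to 8 weeks in the sample labels. PFSUV-IMQ is the TLR7 agonist imiquimod loaded in phospholipid-free small unilamellar vesicles, and it was injected once into the vein on day 17 after implantation at 4 mg/kg. Tumors were taken 3 h later, and RNA was sequenced from 4 tumors labelled IMQNP (numbers 1, 2, 3 and 4, here PFSUV-IMQ) and 4 labelled Control (numbers 1, 3, 4 and 5, here saline, as the study's methods describe that arm). There was no arm with empty vesicles or free imiquimod among these 8 tumors, the mice of both groups bore the same tumor line, and the labels do not say whether each tumor came from a mouse of its own, so the errors below measure the spread between tumors.

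Flt3 is the receptor for the growth factor that sustains dendritic cells. Conventional dendritic cells fall into a cross-presenting type (cDC1), which bears Xcr1 and Clec9a, and a second type (cDC2), while plasmacytoid cells (pDC) bear Siglech and make type I interferon after TLR7 or TLR9 is engaged. On activation, dendritic cells display CD40, CD80 and CD86 to T cells and use CCR7 to migrate to lymph nodes, although macrophages, monocytes and B cells also carry the costimulatory genes, so that none of the latter belongs to dendritic cells alone.

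Each saline tumor gave between 16883911 and 27687756 counts and each PFSUV-IMQ tumor between 17008151 and 18527613, and a floor of 3 counts corresponded to 0.105 to 0.163 and 0.165 to 0.210 CPM (reads scaled to a common library size with edgeR's TMM factors). Transcripts of dendritic cell lineage factors were present in every tumor: Zbtb46 and Batf3 lay at 4.75 to 10.5 and 1.61 to 4.07 CPM after saline, and at 4.85 to 8.52 and 2.57 to 5.31 CPM after PFSUV-IMQ. Genes were compared with edgeR's quasi-likelihood test over 15998 tested genes, and a gene was called when the Benjamini-Hochberg adjusted p was under 0.05 and the log2 fold change (PFSUV-IMQ minus saline) was beyond 1 in size. PFSUV-IMQ tumor 2 stood apart, with a summed level of 8 hepatocyte genes of 34851 CPM against 6220 to 9140 CPM in the other tumors of its group, and saline tumor 4 held 34102 CPM against 4362 to 14195 CPM in its group, so where leaving out either tumor changed the sign or size of a value much, the value without it is given beside it. In bulk tumors, fewer cells of a type and less RNA per cell cannot be told apart.

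Of the 10 genes, all passed the filter on low counts, 1 was called higher (Cd40) and none was called lower, where 2.26% of all tested genes were called higher and 0.200% lower. All 4 costimulation and migration genes had a fold change above 0, with a median of 0.69 on the log2 scale, and 5 of the 6 identity genes had a fold change below 0, with a median of -0.97, beside a median of -0.03 over all tested genes. Without PFSUV-IMQ tumor 2, 3 of the 4 costimulation and migration genes were above 0 (median 0.47) and 6 of the 6 identity genes below 0 (median -1.23, beside -0.04 over all tested genes), and without saline tumor 4 the medians were 0.67 and -0.61. Before adjustment, 3 of the 4 costimulation and migration genes were higher and 3 of the 6 identity genes lower at p under 0.05, against 8.34% and 4.65% of all tested genes, and of these 6 genes Cd40 alone passed the adjusted threshold. For Cd40 and Cd80 the 4 PFSUV-IMQ tumors all exceeded the 4 saline tumors, as in 6.00% of all tested genes, and in none of the 10 genes did every PFSUV-IMQ tumor lie below, as in 3.28% of all tested genes.

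**Figure D1:**
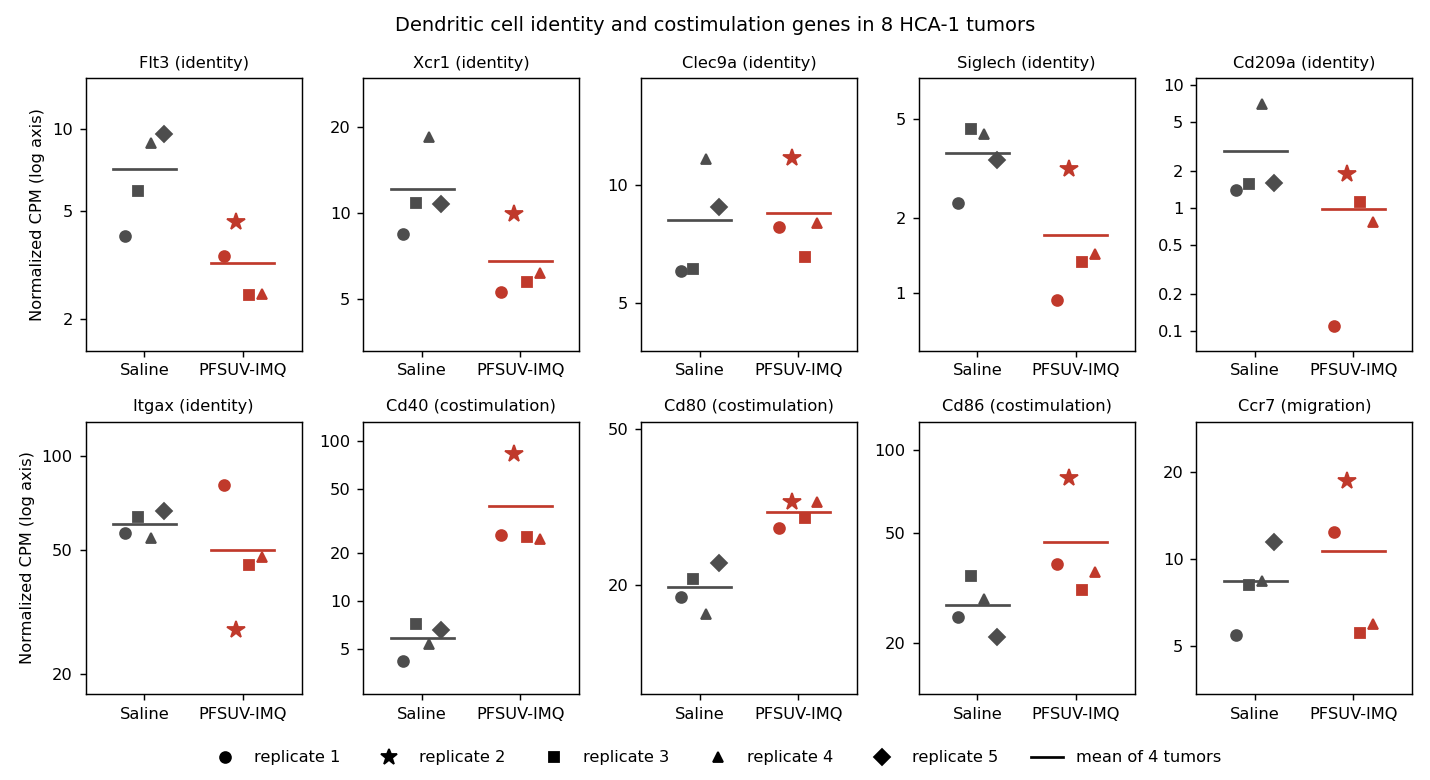
Normalized CPM of each of the 10 genes (log axis, with a range of its own in each panel) in 4 saline and 4 PFSUV-IMQ tumors, with the symbol giving the replicate number and the line the mean of the group. The PFSUV-IMQ tumors lie above the saline tumors without overlap for Cd40 and Cd80, and the groups overlap for the other 8 genes.

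Cd40, the receptor through which helper T cells license dendritic cells, macrophages and B cells, lies on chr2:165055627-165072948 (plus strand; ENSMUSG00000017652). Its level was 4.19, 7.20, 5.41 and 6.57 CPM in saline tumors 1, 3, 4 and 5 and 25.9, 82.9, 25.0 and 24.4 CPM in PFSUV-IMQ tumors 1 to 4. The PFSUV-IMQ tumors all exceeded the saline tumors, and PFSUV-IMQ tumor 2 stood far above the other tumors of its group. Cd40 rose 6.75-fold, from 5.84 ± 1.33 to 39.5 ± 28.9 CPM (mean ± SD, n = 4 per group), with a log2 fold change of 2.75 (SE 0.44, 95% interval 1.76 to 3.75, adjusted p = 0.0110 in edgeR's quasi-likelihood test). Among the 362 genes called higher, 102 had a larger fold change. Without PFSUV-IMQ tumor 2 the log2 fold change was 2.08 (adjusted p = 9.4e-04) and the group mean was 25.1 ± 0.785 CPM, and with saline tumor 4 left out as well it was 2.04 (adjusted p = 0.00331). Cd40 remained called in each of the 8 fits that left out 1 tumor, with an adjusted p of at most 0.0493. The summed level of 8 B cell genes was 33.5 CPM in PFSUV-IMQ tumor 2. It was 4.91 to 6.62 CPM in the other tumors of that group and 2.72 to 12.6 CPM after saline. The part of B cells in the Cd40 values was not tested.

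Cd80, one of the B7 ligands that CD28 and CTLA4 on T cells recognize, lies on chr16:38455561-38496335 (plus strand; ENSMUSG00000075122). Its level was 18.6, 20.7, 16.9 and 22.8 CPM after saline against 27.9, 32.6, 29.7 and 32.6 CPM after PFSUV-IMQ, with little spread in either group and no overlap. The means were 19.8 ± 2.55 and 30.7 ± 2.29 CPM (n = 4 each), a ratio of 1.55 and a log2 fold change of 0.64 (SE 0.15, 95% interval 0.29 to 0.98). This gene was not called, as it met neither condition. Its adjusted p was 0.0693 in edgeR's quasi-likelihood test, and its fold change was under the limit of 1, as was its upper bound of 0.98.

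Cd86, the other B7 ligand of the same receptors, lies on chr16:36603869-36666081 (minus strand; ENSMUSG00000022901). It was measured at 24.9, 35.1, 28.9 and 21.01 CPM after saline, and at 38.8, 79.2, 31.2 and 36.1 CPM after PFSUV-IMQ. PFSUV-IMQ tumor 2 was again the highest, and PFSUV-IMQ tumor 3 lay below saline tumor 3, so the groups overlapped. Cd86 was not called, with a log2 fold change of 0.75 (SE 0.31, 95% interval 0.06 to 1.44, adjusted p = 0.329 in edgeR's quasi-likelihood test), or 0.35 without PFSUV-IMQ tumor 2. The mean of the PFSUV-IMQ group, 46.3 ± 22.2 CPM with all 4 tumors, was 35.4 ± 3.89 CPM without that tumor, beside 27.5 ± 6.02 CPM after saline.

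Ccr7, the receptor for CCL19 and CCL21 that guides mature dendritic cells and naive T cells to lymph nodes, lies on chr11:99144196-99155077 (minus strand; ENSMUSG00000037944). Its level was 5.48, 8.15, 8.42 and 11.4 CPM after saline against 12.4, 18.6, 5.58 and 5.95 CPM after PFSUV-IMQ. The PFSUV-IMQ tumors fell on both sides of the saline mean: tumors 1 and 2 were above every saline tumor, and tumors 3 and 4 were above saline tumor 1 alone. The log2 fold change of 0.34 (SE 0.41, 95% interval -0.57 to 1.26, adjusted p = 0.815 in edgeR's quasi-likelihood test) became -0.082 without PFSUV-IMQ tumor 2, so its sign rested on that tumor.

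Among the identity genes, Flt3 (chr5:147330741-147400489, minus strand; ENSMUSG00000042817) was measured at 4.06, 5.90, 8.85 and 9.56 CPM after saline, and at 3.42, 4.54, 2.45 and 2.48 CPM after PFSUV-IMQ. The groups met only where PFSUV-IMQ tumor 2 was above saline tumor 1. The means were 7.09 ± 2.57 and 3.22 ± 0.986 CPM (n = 4 each), with a log2 fold change of -1.14 (SE 0.34, 95% interval -1.90 to -0.38). Flt3 was not called, with an adjusted p of 0.147 in edgeR's quasi-likelihood test, although its interval lies below 0 before adjustment over all tested genes. DESeq2's Wald test, which called 3.14% of its tested genes higher and 0.676% lower, called Flt3 lower (adjusted p = 0.0332).

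Xcr1, the receptor of cDC1 cells for the chemokine XCL1, lies on chr9:123852315-123862029 (minus strand; ENSMUSG00000060509). It was measured at 8.43, 10.9, 18.5 and 10.8 CPM after saline, and at 5.30, 9.92, 5.74 and 6.18 CPM after PFSUV-IMQ. Saline tumor 4 was the highest of its group and PFSUV-IMQ tumor 2 of the other, and the latter was above saline tumor 1. For Xcr1 the log2 fold change was -0.84 (SE 0.30, 95% interval -1.52 to -0.16, adjusted p = 0.257 in edgeR's quasi-likelihood test), and it was -0.57 without saline tumor 4 and -1.10 without PFSUV-IMQ tumor 2.

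Clec9a, the cDC1 receptor for actin exposed by dead cells, lies on chr6:129408862-129424763 (plus strand; ENSMUSG00000046080). Its level was 6.04, 6.11, 11.6 and 8.80 CPM after saline against 7.78, 11.7, 6.52 and 7.99 CPM after PFSUV-IMQ. It was the identity gene with a fold change above 0, its means were 8.14 ± 2.64 and 8.49 ± 2.21 CPM (n = 4 each), and the groups overlapped. The log2 fold change was 0.06 (SE 0.28, 95% interval -0.58 to 0.70, adjusted p = 0.964 in edgeR's quasi-likelihood test), and it was -0.14 without PFSUV-IMQ tumor 2 and 0.28 without saline tumor 4. The exons of Clec9a overlap those of Clec1b over 5.59% of their length, where reads could be shared.

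Siglech, a surface lectin of pDC cells, lies on chr7:55768178-55778925 (plus strand; ENSMUSG00000051504). It was measured at 2.30, 4.57, 4.38 and 3.42 CPM after saline, and at 0.938, 3.14, 1.34 and 1.43 CPM after PFSUV-IMQ, from 50 to 130 and from 17 to 45 counts. PFSUV-IMQ tumors 1, 3 and 4 were below every saline tumor, and tumor 2 was above saline tumor 1. The log2 fold change was -1.11 (SE 0.41, 95% interval -2.03 to -0.19), and the gene was not called, with an adjusted p of 0.271 in edgeR's quasi-likelihood test. Without PFSUV-IMQ tumor 2 the value was -1.58 (adjusted p = 0.0599 in the same edgeR test). A fit with the replicate number as a block called 2.60% of all tested genes higher and 1.67% lower. That fit, from which PFSUV-IMQ tumor 2 drops out for want of a partner, called Siglech lower at -1.57 (adjusted p = 0.0437 in edgeR's quasi-likelihood test). Tumors that share a number did not deviate together, so the numbers were not taken as pairs.

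Cd209a, a C-type lectin of monocyte-derived dendritic cells and cDC2 cells, lies on chr8:3743397-3748984 (minus strand; ENSMUSG00000031494). It gave 30, 44, 163 and 29 counts in the saline tumors, or 1.38, 1.55, 7.002 and 1.57 CPM, and 2, 27, 20 and 14 counts in the PFSUV-IMQ tumors, or 0.110, 1.89, 1.12 and 0.772 CPM. Saline tumor 4 held most of the saline signal and PFSUV-IMQ tumor 1 was under the floor of 3 counts. The log2 fold change of -1.58 (SE 0.77, 95% interval -3.30 to 0.14, adjusted p = 0.443 in edgeR's quasi-likelihood test) was -0.65 without saline tumor 4 and -2.11 without PFSUV-IMQ tumor 2, and with an interval this wide neither a several-fold decrease nor no difference was resolved at this depth.

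Itgax encodes CD11c, an integrin of dendritic cells that many macrophages also carry, and lies on chr7:128129547-128150657 (plus strand; ENSMUSG00000030789). Its level was 56.5, 63.4, 54.3 and 66.7 CPM after saline against 80.4, 27.5, 44.7 and 47.4 CPM after PFSUV-IMQ. The saline tumors were close together, whereas the PFSUV-IMQ tumors held both the highest value (tumor 1) and the lowest (tumor 2), and the SD was 5.79 and 22.1 CPM. Itgax was not called, with a log2 fold change of -0.27 (SE 0.28, 95% interval -0.90 to 0.37, adjusted p = 0.785 in edgeR's quasi-likelihood test), or -0.085 without PFSUV-IMQ tumor 2. Of the 50-base words in its transcripts, 9.61% also occur in Itgad, so part of its signal could be split between these genes.

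**Figure D2:**
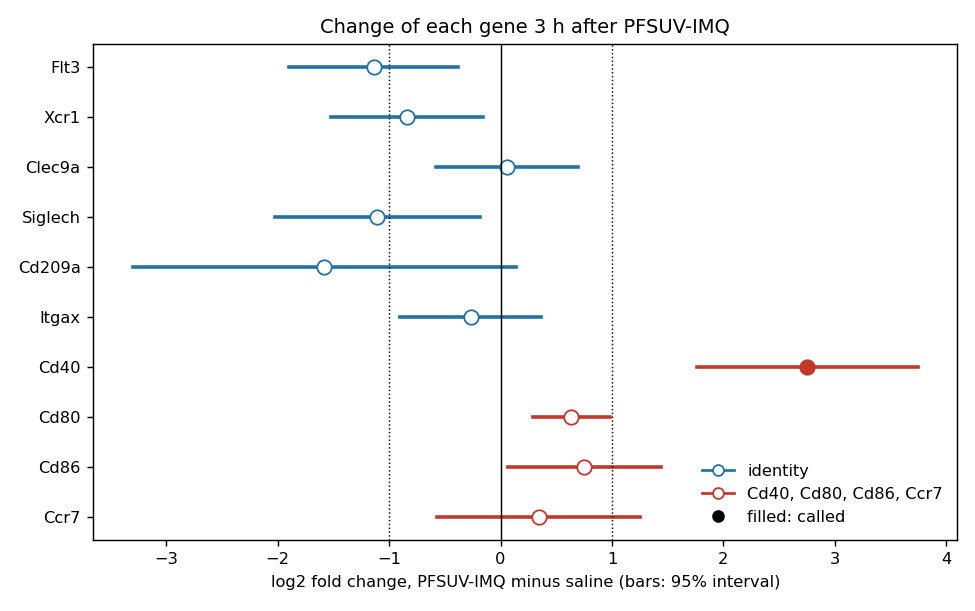
Log2 fold change of the 10 genes (PFSUV-IMQ minus saline) from edgeR's quasi-likelihood fit, with bars for the 95% interval, dotted lines at the fold limit of 1 in either direction and a filled point for the called gene. Cd40 at 2.75 is the called gene, Clec9a at 0.06 is the identity gene above 0, and Cd209a has the widest interval, -3.30 to 0.14.

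Levels of different genes were compared per length, as RPKM (CPM divided by the length of the exons in kilobases). After saline, Itgax was the most abundant of the 10 genes at 12.5 ± 1.21 RPKM, above Cd86 at 7.51 ± 1.64 RPKM in every tumor, and the order went on through Cd80, Ccr7, Xcr1, Clec9a, Cd209a, Cd40 and Flt3 to Siglech at 1.08 ± 0.307 RPKM (n = 4), where neighbours overlapped between tumors. After PFSUV-IMQ, Cd86 was first at 12.7 ± 6.05 RPKM, followed by Cd40 at 11.6 ± 8.48 and Itgax at 10.4 ± 4.60 RPKM, and Siglech was last at 0.506 ± 0.289 RPKM, with each neighbour overlapping the next. That order rested on PFSUV-IMQ tumor 2. Without it Itgax was first at 11.97 ± 4.14 RPKM, as after saline, followed by Cd86 at 9.66 ± 1.06, Cd80 at 8.12 ± 0.635 and Cd40 at 7.37 ± 0.230 RPKM (n = 3), with overlap between neighbours down to Cd40. Cd40 stood at rank 8 of 10 after saline and at rank 2 after PFSUV-IMQ, or at rank 4 without that tumor.

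Ratios within a tumor do not depend on its library size, and those given here were chosen after the values were seen and carry no test. Cd40 per unit of Itgax, both per length, ranged from 0.105 to 0.160 after saline and from 0.455 to 4.24 after PFSUV-IMQ. Cd80 per unit of Itgax ranged from 0.404 to 0.444 and from 0.450 to 1.53, again without overlap, while for Cd86 the ranges 0.413 to 0.727 and 0.634 to 3.78 overlapped, as did those for Ccr7, 0.236 to 0.415 and 0.303 to 1.64. The upper end of each PFSUV-IMQ range was tumor 2, in which Itgax was lowest. Of the cDC1 genes, Clec9a per unit of Xcr1 lay between 0.761 and 1.10 after saline and between 1.54 and 1.99 after PFSUV-IMQ, and these ranges did not overlap.

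**Figure D3:**
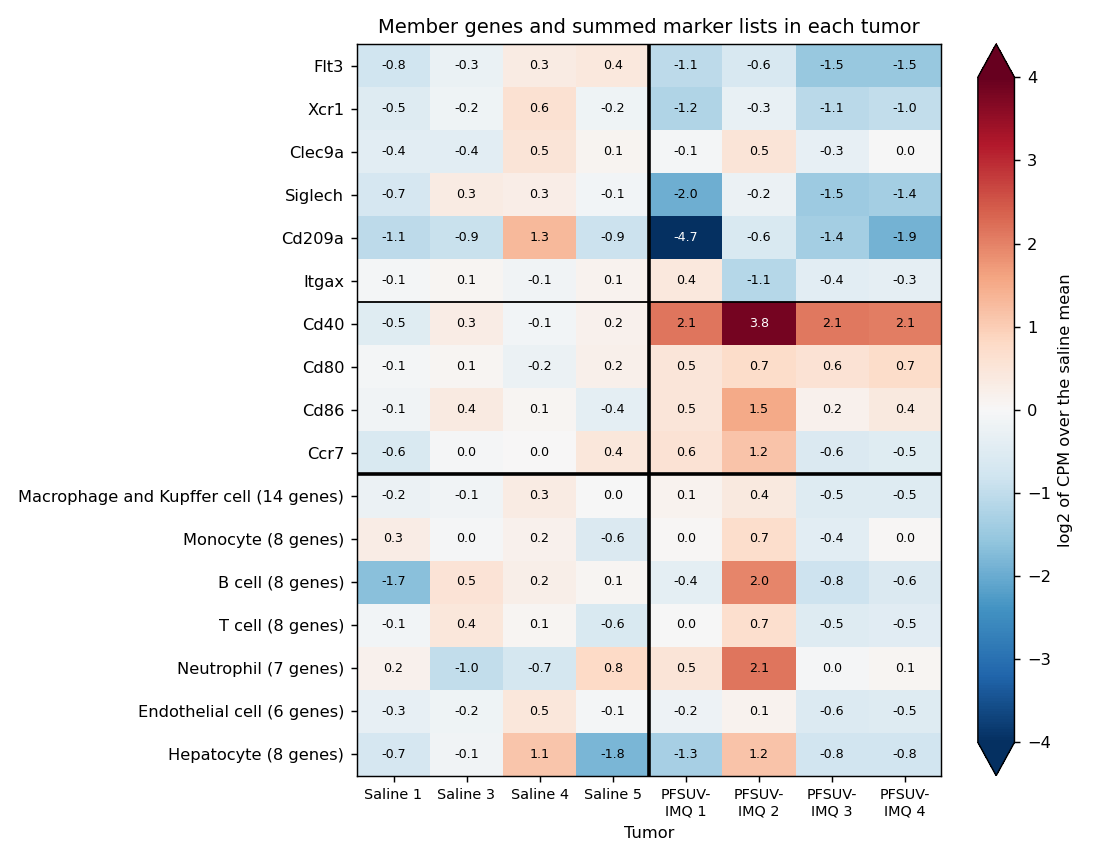
Log2 of the CPM over the saline mean for the 10 genes (upper rows) and for the summed CPM of 7 marker lists (lower rows) in each of the 8 tumors, with red above and blue below the saline mean and colours saturated beyond 4. PFSUV-IMQ tumor 2 is the darkest red for Cd40 (82.9 CPM) and also holds the highest B cell (33.5 CPM) and neutrophil (156 CPM) sums.

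Markers of other cell types that could carry the same genes were read beside these values. Summed levels were 1161 to 1706 CPM after saline against 945 to 1794 CPM after PFSUV-IMQ for 14 macrophage and Kupffer cell genes, 289 to 538 and 322 to 701 CPM for 8 monocyte genes, 66.5 to 138 and 70.4 to 163 CPM for 8 T cell genes, 17.8 to 61.7 and 34.5 to 156 CPM for 7 neutrophil genes, and 112 to 193 and 95.5 to 155 CPM for 6 endothelial genes. The groups overlapped in each of these sums and in those of the B cell and hepatocyte genes, and PFSUV-IMQ tumor 2 held the highest sum of 6 of the 7 lists, the endothelial list being highest in saline tumor 4. No gene of the B cell, T cell, neutrophil, endothelial or hepatocyte lists was called, and Fcer2a and Ly6g were at 0 in some tumors. All 6 tested neutrophil genes were above 0, with a median of 1.165 (0.38 without PFSUV-IMQ tumor 2, with 5 above 0). Retnlg among them lay higher in every PFSUV-IMQ tumor (log2 fold change 2.48, or 1.38 without tumor 2), and was under the floor in saline tumor 4. The T cell gene Tcf7 lay lower in every PFSUV-IMQ tumor (-0.75), as did 3.28% of all tested genes. The macrophage list held Fcgr1, called higher (log2 fold change 1.32), and Vsig4, called lower (-1.62), and the monocyte list held Cx3cr1, called lower (-2.81). Over all tested genes, 2.26% were called higher and 0.200% lower. The monocyte genes were split, with 4 above 0 and 4 below. Ly6c2 ranged from 3.36 to 7.65 CPM after saline and from 9.43 to 34.8 CPM after PFSUV-IMQ. Its log2 fold change was 1.88 (adjusted p = 0.0633 in edgeR's quasi-likelihood test). Plac8, at 1.17 (0.56 without PFSUV-IMQ tumor 2), was also higher without overlap between the groups, as were 6.00% of all tested genes. Ccr2 went the other way, from 56.0 ± 24.3 to 23.9 ± 4.67 CPM, with overlap (log2 fold change -1.23, adjusted p = 0.0890 in the same test). F13a1 was at -0.58, or at -1.68 without PFSUV-IMQ tumor 2, when it was called lower. None of these genes was called with all tumors. When each tumor was left out in turn, Cx3cr1 was called in 8 of 8 fits, Fcgr1 in 3 of 8 and Vsig4 in 1 of 8. The part of these cells in the values of Cd40, Cd86 or the identity genes was not tested.

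The cDC1 program beyond Xcr1 and Clec9a was read in 9 more genes, of which 8 were tested. A single gene was called higher, beside 2.26% of all tested genes. It was Tlr3, the receptor for double-stranded RNA and a known interferon-induced gene. Tlr3 rose from 26.0 ± 8.24 to 180 ± 91.0 CPM (n = 4 each) with a log2 fold change of 2.79 (SE 0.39, adjusted p = 0.00522 in edgeR's quasi-likelihood test). The median of the 8 was -0.30 (-0.55 without PFSUV-IMQ tumor 2), and 6 were below 0 and 2 above. Every PFSUV-IMQ tumor lay below every saline tumor for Itgae, the integrin CD103, at 7.91 to 16.9 CPM after saline against 3.03 to 6.51 CPM after PFSUV-IMQ, and for Naaa, a lysosomal amidase, but neither was called, and such separation was seen in 3.28% of all tested genes. The most abundant uncalled genes, Cadm1 and Ppt1, had log2 fold changes of 0.04 and -0.13, and that of Cadm1 turned negative under upper-quartile normalization and without saline tumor 4.

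Of 5 cDC2 genes, 4 were tested and none was called, at a median of -0.61 (-0.81 without PFSUV-IMQ tumor 2). Mgl2, a C-type lectin shared with macrophages, was measured at 51.1 to 98.3 CPM after saline against 27.0 to 46.6 CPM after PFSUV-IMQ (log2 fold change -0.97, adjusted p = 0.0750 in edgeR's quasi-likelihood test). Sirpa, which binds CD47 and is carried by many myeloid cells, had a log2 fold change of -0.64, and its groups did not overlap either, so that 2 of the 4 were lower in every PFSUV-IMQ tumor, against 3.28% of all tested genes.

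Of 10 pDC genes, 8 were tested, and Bst2 alone was called higher, beside 2.26% of all tested genes. The median was 0.66 (0.18 over 9 tested genes without PFSUV-IMQ tumor 2). Bst2, which tethers virions to the cell surface, marks pDC cells in the resting mouse and is induced by interferon in many cell types, and it rose from 91.3 ± 21.6 to 342 ± 89.5 CPM (log2 fold change 1.90, SE 0.25, adjusted p = 0.00381 in edgeR's quasi-likelihood test, n = 4 each). Siglech had the opposite sign, at -1.11, and was not called. Of the 8 tested genes, 2 (Bst2 and Ly6d) lay higher in every PFSUV-IMQ tumor than in every saline tumor, against 6.00% of all tested genes. Another 1 (Cd300c, at most 24 counts in any tumor) lay lower in every PFSUV-IMQ tumor, against 3.28%. Ly6d and Cd300c had log2 fold changes of 1.25 and -0.94, and neither was called. Tlr7, the receptor that imiquimod engages, was measured at 5.92 to 9.54 CPM after saline against 7.42 to 25.0 CPM after PFSUV-IMQ (log2 fold change 0.75, adjusted p = 0.492 in the same test). The highest of these was PFSUV-IMQ tumor 2, without which the value was 0.18, and the transcription factor Runx2 had a log2 fold change of 0.25.

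No gene was called among 12 growth and transcription factors of dendritic cells, whose median was 0.34 (-0.20 without PFSUV-IMQ tumor 2, when 6 were above 0 and 6 below, against 10 and 2 with it). Klf4, a factor that many cell types use, was measured at 163 to 284 CPM after saline against 361 to 460 CPM after PFSUV-IMQ without overlap (log2 fold change 0.89, adjusted p = 0.0549 in edgeR's quasi-likelihood test), while Id2, which cDC1 cells need, had a log2 fold change of -0.16. The groups did not overlap for Nfil3 either (log2 fold change 0.89, or 0.62 without PFSUV-IMQ tumor 2). So 2 of the 12 lay higher in every PFSUV-IMQ tumor, against 6.00% of all tested genes. The program of maturing dendritic cells beyond Ccr7 was read in 20 genes, of which 19 were tested and none was called. It was split between 10 genes above 0 and 9 below, with a median of 0.03 (-0.13 without PFSUV-IMQ tumor 2), and its most abundant genes Tmem123 and Marcksl1 had log2 fold changes of -0.16 and 1.35 (adjusted p = 0.250 for the latter in edgeR's quasi-likelihood test). Marcksl1 was at 387 CPM in PFSUV-IMQ tumor 2, and without that tumor its value was 0.56. The list ran from -0.91 for Ccl22, a chemokine that draws CCR4-bearing T cells, to 1.66 for Il15ra, which presents IL-15, its extremes named after their values were seen. The groups overlapped for both. Il15ra was at 111 CPM in PFSUV-IMQ tumor 2 against 21.6 to 38.0 CPM in the rest of its group. Without that tumor Il15ra was at 0.96 and Ccl22 at -1.20.

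Of 16 receptors and ligands that act with the costimulation genes or Ccr7, 13 were tested. Cd274 alone was called higher, beside 2.26% of all tested genes. Cd274 encodes PD-L1, an interferon-induced ligand of PD-1 that also binds CD80, and its level was 46.3, 90.1, 43.3 and 25.6 CPM after saline against 258, 470.1, 210 and 279 CPM after PFSUV-IMQ. The groups did not overlap, with a log2 fold change of 2.57 (SE 0.40, adjusted p = 0.0102 in edgeR's quasi-likelihood test). The list's median was 0.39, with 11 of 13 above 0, or 0.06 with 7 of 13 above 0 without PFSUV-IMQ tumor 2. Cd40lg, the ligand of CD40, had at most 3 counts in any tumor, and Ccl19 and Cd70 at most 7 and 2, so none of these could be tested. Tnfrsf9 and Pdcd1, the abundant uncalled genes of the list, had log2 fold changes of 0.07 and 0.26, the former with a sign that turned under upper-quartile normalization and without saline tumor 4, and both with one that turned without PFSUV-IMQ tumor 2 (-0.094 and -0.15).

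CD40 signals through TRAF adaptors to NF-κB, and 14 genes of that path were tested. None was called, 13 of 14 had a fold change above 0 (7361 of the 15998 tested genes did), the median was 0.38 (0.23 without PFSUV-IMQ tumor 2), and 4 of 14 (Traf5, Nfkb1, Nfkbia and Tnfaip3) lay higher in every PFSUV-IMQ tumor than in every saline tumor, against 6.00% of all tested genes. Nfkbia and Nfkb1, the inhibitor IκBα and the p105 subunit, differed by 1.01 and 0.49 on the log2 scale, or by 0.66 and 0.35 without PFSUV-IMQ tumor 2 (adjusted p = 0.155 and 0.197 with all tumors in edgeR's quasi-likelihood test). Traf3, an inhibitor of the noncanonical branch, was the gene below 0, at -0.21.

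**Figure D4:**
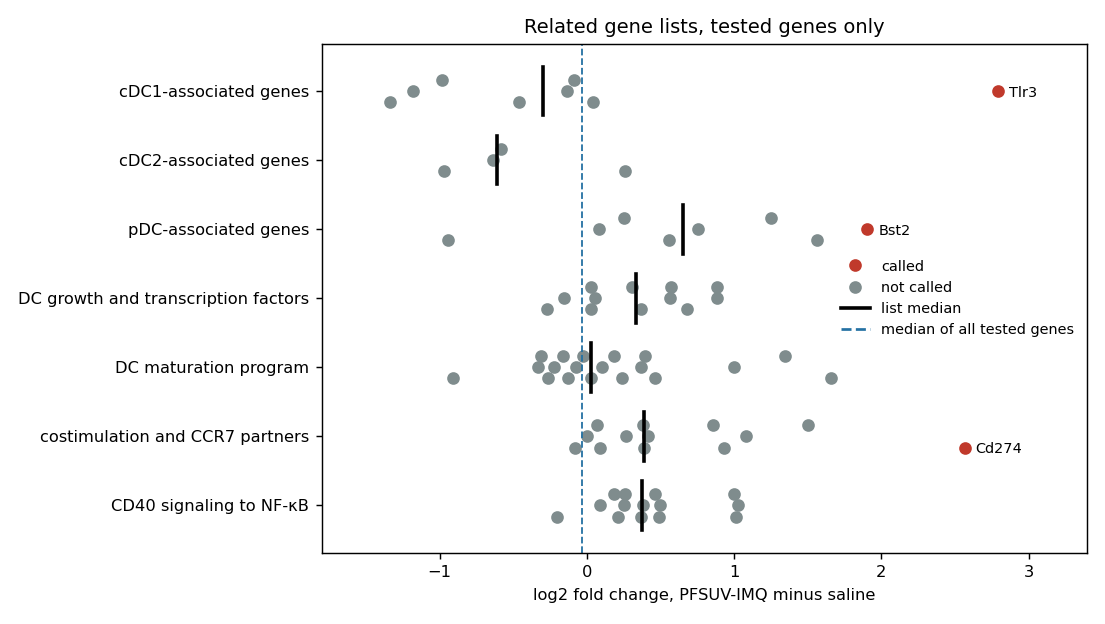
Log2 fold change (PFSUV-IMQ minus saline) of each tested gene in 7 related lists, with red points for called genes, a black bar for the median of the list and a dashed line for the median of all tested genes (-0.03). Tlr3, Bst2 and Cd274 are the called genes of these lists, and the medians run from -0.61 in the cDC2 list to 0.66 in the pDC list.

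For the called gene Cd40, the genes with the most similar pattern were sought by the root mean square difference over the 8 tumors in log2 CPM centred on the saline mean. The closest were Hsh2d at 0.172, Mxd1 at 0.203 and Socs1 at 0.218. The search used the same 8 tumors, so a fold change and a highest tumor like those of Cd40 follow from the selection. Each was also called, with log2 fold changes of 2.74, 2.91 and 2.74, and each was highest in PFSUV-IMQ tumor 2 as Cd40 was: Hsh2d was at 15.6 CPM there and 5.90 to 6.45 CPM in the rest of the group, Mxd1 at 359 against 100.3 to 126 CPM, and Socs1 at 102 against 29.1 to 31.9 CPM. With a smaller prior count, 2 of these 3 genes remained among the closest 3.

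The RefSeq promoter windows (GRCm38.p6, 250 bases before to 50 after the start) of 7 of the 10 genes were searched on both strands for a core of the interferon response element, GAAANNGAAA, and for an NF-κB-like site, GGGANNNNCC. The first occurs in 3.44% and the second in 20.7% of 32851 such windows. A single match was found, an NF-κB-like site in Cd80 on the plus strand at positions -210 to -201 from the RefSeq start, and its window lies within an intron of the longer transcript that GENCODE gives for Cd80. Windows of Cd40, Cd86 and Ccr7 were not analysed here. The 250 bases before the start are shown for Cd80 (chr16:38458683-38458932, plus strand), since it holds the match. They are also shown for Flt3 (chr5:147400490-147400739, minus strand), the receptor for the growth factor that sustains dendritic cells. Each is given 5′ to 3′ on the strand of the gene with the match in capitals. A match is a description of letters and no evidence of binding.
Cd80: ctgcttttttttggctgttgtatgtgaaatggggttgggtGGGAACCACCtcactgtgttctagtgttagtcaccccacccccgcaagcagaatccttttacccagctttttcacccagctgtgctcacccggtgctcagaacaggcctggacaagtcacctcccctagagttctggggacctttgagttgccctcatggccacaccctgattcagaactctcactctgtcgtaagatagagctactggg
Flt3: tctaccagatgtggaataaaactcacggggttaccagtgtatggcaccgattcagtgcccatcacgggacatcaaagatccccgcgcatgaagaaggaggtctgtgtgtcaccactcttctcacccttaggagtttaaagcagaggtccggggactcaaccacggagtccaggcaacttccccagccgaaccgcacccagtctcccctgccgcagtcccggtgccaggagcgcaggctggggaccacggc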

How the data were processed

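RNA was sequenced from 8 HCA-1 tumors (4 IMQNP, 4 Control). The authors deposited raw counts of reads per gene, which were the input of every test, and a table of DESeq2-normalized signal values, which the authors made by dividing the counts by a size factor per tumor (largest relative departure 5.4e-10); that table was used to match symbols. The study's methods name TopHat 2.0.12 and HTSeq 0.6.1, whereas the submitters' processing notes list Trimmomatic 0.38, HISAT2 2.1.0 and featureCounts 2.0.0, so the aligner and counter behind the counts are uncertain, and the strand setting and build are not given in the sources used here. All 55536 identifiers are in GENCODE M21 (GRCm38). Reads shared between similar or overlapping genes may be lost or split by the counter.

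Tests were run with edgeR 4.0.16 in R 4.3.3 (TMM, default filter on low counts, quasi-likelihood test without covariates, Benjamini-Hochberg adjustment over 15998 genes). Alternatives were run with edgeR and DESeq2 1.42.0, after the edgeR fit had been checked on simulated counts. CPM and RPKM were computed with TMM library sizes, RPKM over the union of GENCODE exons, and log2 CPM with a prior count of 2. No batch or date was given. Replicates differed beyond counting error (chi-square per degree of freedom 26.0 to 258 between tumors of a group), so none was a repeat count of the same library. That comparison covers counting error only and cannot tell pieces of the same tumor or mouse from separate mice. Floors cover counting error only.

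The members, lists and tests were chosen with earlier results of these data known. Genes named were all members, up to 4 called and the 2 most abundant uncalled genes of each related list, and the 3 genes most like Cd40. For each marker list the plan was the 2 genes with the largest absolute log2 fold change. Of these, the called genes, Ly6c2, Retnlg and Tcf7 are named, and the other uncalled ones are left out. Zbtb46 and Batf3 were named as lineage markers. Outside the rule, and chosen after their values were seen, are genes of the lists whose groups did not overlap, untested genes, the extremes of the maturation list, Ccr2, F13a1 and Traf3. All 152 list genes were matched. Alternatives were other size factors and filters, DESeq2, glmTreat, no fold limit, a replicate block, another prior count and each tumor left out. Leaving out PFSUV-IMQ tumor 2 and saline tumor 4 together, and the per-length order without tumor 2, were chosen after seeing the data.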

Additional observations from a re-analysis of the deposited data

Results flagged for a closer look

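In groups of 4 tumors, the highest and lowest values were compared with the rest by Dixon's ratio (critical value 0.829), which by chance marks about 1 in 20 groups, and 6 of 34 groups tested were marked. For the genes, these were Cd209a in saline tumor 4, at 7.002 CPM against 1.38 to 1.57 CPM in the other saline tumors, Cd40 in PFSUV-IMQ tumor 2, at 82.9 CPM against 24.4 to 25.9 CPM, and Cd86 in the same tumor, at 79.2 CPM against 31.2 to 38.8 CPM. For the summed marker lists, PFSUV-IMQ tumor 2 was marked for B cell genes, at 33.5 CPM against 4.91 to 6.62 CPM, for neutrophil genes, at 156 CPM against 34.5 to 51.1 CPM, and for hepatocyte genes, at 34851 CPM against 6220 to 9140 CPM. So 5 of the 6 marks fell on a single tumor, and these 5 are not independent of each other. Their cause was not tested.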

How the results depend on the processing

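Cd40 had a log2 fold change between 2.04 and 2.94 under 17 alternatives and was called under 16. The alternative with no fold limit was the main fit under a looser rule, so the call of Cd40 there was fixed in advance. With glmTreat, which tests for a change beyond a log2 fold change of 1, its value was 2.75 with an adjusted p of 0.0611, so 0 of the members and 0 of the costimulation genes were called. With DESeq2's Wald test 1 identity gene was called lower, Flt3 at -1.13 (adjusted p = 0.0332), and Cd80 had an adjusted p of 0.0202 below the fold limit. Clec9a changed sign under upper-quartile normalization (-0.018) and ranged from -0.14 to 0.28 when each tumor was left out. Ccr7 ranged from -0.082 (without PFSUV-IMQ tumor 2) to 0.56 and was -0.085 without that tumor and saline tumor 4. The other 7 members kept the sign of their fold change under every alternative run. The cause of these shifts was not tested.

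The counts over all genes, 362 higher and 32 lower, were 618 and 133 with DESeq2, 119 and 1 with glmTreat, and 63 lower with no filter on low counts. When each tumor was left out they ranged from 197 to 375 higher and from 8 to 38 lower, the lowest count of higher genes being without saline tumor 1 and that of lower genes without PFSUV-IMQ tumor 4. With a prior count of 0.5, 2 of the 3 genes most like Cd40 were the same. The rank of Cd40 by length-scaled level after PFSUV-IMQ, 2 of 10, was 4 without PFSUV-IMQ tumor 2.

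Tumors that share a replicate number did not deviate together (correlations 0.29, -0.27 and -0.32 for numbers 1, 3 and 4), so the numbers were not taken as pairs. With a replicate block, 416 genes were called higher and 267 lower, among them 1 identity gene, Siglech at -1.57 (adjusted p = 0.0437), while Clec9a was -0.030 and Cd40 2.19 (adjusted p = 0.00450). PFSUV-IMQ tumor 2 and saline tumor 5 have no partner and drop out of that fit. With at least 10 counts required in every tumor, Cd209a could not be tested.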
